A study of Homo sapiens with 6 samples.

Results

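The 54 genes described here encode the machinery that copies DNA and the E2F transcription factors that control it. They were chosen by gene symbol from a written list, and all 54 are among the 22354 loci of the count table. Cells copy their genome in S phase. An MCM helicase is loaded onto origins of replication in G1, is activated at the start of S phase, and is followed by polymerases, a sliding clamp and enzymes that join the new strands. E2F1, E2F2 and E2F3 activate most of these genes once the retinoblastoma protein releases them, and E2F7 and E2F8 repress them again later in S phase; in cells with DNA damage the same program is a common point of arrest.

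RNA was sequenced from HTori-3.1, an immortalised line of normal human thyroid cells, in 3 libraries labelled control (wild type) and 3 labelled BMAL1 knockout. BMAL1 is a core transcription factor of the circadian clock, and the study asked how its loss alters expression in a thyroid line made senescent. The knockout cells received Cas9 and a guide RNA against BMAL1 from a virus, were selected with puromycin and single clones were selected, so the effect of the knockout and differences between clones cannot be told apart. The protocol also describes an siRNA against BMAL1, which no label ties to these libraries. Both groups were exposed to 2 μM etoposide, a topoisomerase II poison that breaks DNA, for a time that the labels give as 12 h in one field and 24 h in another. No untreated library was analysed here, so every level below is that of etoposide-treated cells. The labels do not say that replicates are separate cultures, so p-values measure the spread between these samples, which may be technical.

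Total counts were 26893063, 27029060 and 28513703 in the control libraries against 43148059, 29860233 and 43563391 in those labelled BMAL1 knockout. Levels are given in TMM-normalized CPM, counts relative to a common library total after scaling for composition. Fold changes are knockout over control on the log2 scale. Their standard errors (SE) were derived from the F statistic of edgeR's quasi-likelihood test, and 95% intervals from the SE and a t quantile. A gene was called when its p-value was under 0.05 after Benjamini-Hochberg adjustment across all 14860 loci tested. With 3 libraries a group, no exact permutation test can go below 0.1. The targeted gene went against its label: BMAL1 measured 11.3, 12.2 and 14.6 CPM in the control libraries, and 17.9, 19.8 and 19.4 CPM under the BMAL1 knockout label. All 3 of the latter were higher, with a log2 fold change of 0.58 (95% interval 0.33 to 0.83, adjusted p = 0.0237), and every direction below is that of the libraries as labelled. The level of this RNA tests neither the protein nor the edit, which were not analysed here. With 1 library left out, the adjusted p of BMAL1 was under 0.05 without knockout replicate 1 (0.0153) and control replicate 3 (0.0304). It was 0.105 and 0.129 without control replicates 1 and 2, and 0.0817 and 0.0598 without knockout replicates 2 and 3.

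The thyroid label was checked on 11 follicular markers, of which 4 were tested. PAX8, a thyroid transcription factor, averaged 132 CPM in control and 111 CPM in knockout libraries before TMM scaling, and FOXE1 averaged 47.5 and 40.4 CPM. HHEX averaged 9.89 and 10.4 CPM, and SLC26A4 0.519 and 0.587 CPM. Log2 fold changes were -0.28 for PAX8, -0.26 for FOXE1, 0.057 for HHEX and 0.15 for SLC26A4, and edgeR called 0 of the 4. Without knockout replicate 1 all 4 were below 0. NKX2-1 had 0 counts in all 6 libraries, and TG, TSHR and SLC5A5 had from 0 to 13 counts in any of them, so the markers that define hormone-producing follicular cells were absent or nearly so. Of 6 epithelial markers 5 were tested, with KRT8 most abundant at 1393 and 1168 CPM. KRT18, which encodes a keratin that pairs with that of KRT8, was called lower at a log2 fold change of -0.50 (adjusted p = 0.00588), with all 3 knockout libraries lower. KRT8 was at -0.28 (adjusted p = 0.0517), also lower in all 3, and was called by DESeq2 and limma-voom. The exons of KRT8 and KRT18 overlap on opposite strands in the annotation used. KRT7, KRT19 and EPCAM were not called, at 0.098, 0.23 and 1.55. The part of these markers in the results below was not tested. Of 7 fibroblast markers 2 were tested, COL1A1 (851 and 869 CPM) and PDGFRB, while DCN and LUM had 0 counts. Of 6 leukocyte markers 2 were tested. PTPRC, the most abundant of these, averaged 6.33 CPM in control and 2.38 CPM in knockout libraries and was called lower, at a log2 fold change of -1.42 (adjusted p = 0.00107) with all 3 knockout libraries lower. CD14 had the opposite sign, at 0.97 (adjusted p = 0.343), with overlapping groups at 0.408 and 0.848 CPM, and CD3E and MS4A1 had 0 counts; the leukocyte list summed to 6.67, 6.58 and 7.18 CPM in control and 2.88, 3.01 and 3.68 CPM in knockout libraries after TMM scaling, and its part in the results below was not tested. Of 4 endothelial markers 2 were tested, with VWF most abundant at 1.19 and 0.999 CPM.

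Knockout replicate 1 stood apart from the other libraries in these genes. It held the highest of the 6 values for 24 members and the lowest for 15. Among the 3 knockout libraries it was the extreme one for 92.6% of the members and for 81.4% of all loci tested. The median SD of a member was 3.69% of its mean in the control libraries and 6.47% in the knockout libraries, and 2.79% in knockout replicates 2 and 3 alone. The log2 fold change was above 0 for 31 members over 6 libraries and for 25 without replicate 1, when 12 members turned sign, 9 of them to below 0 and 3 to above 0.

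**Figure D1:**
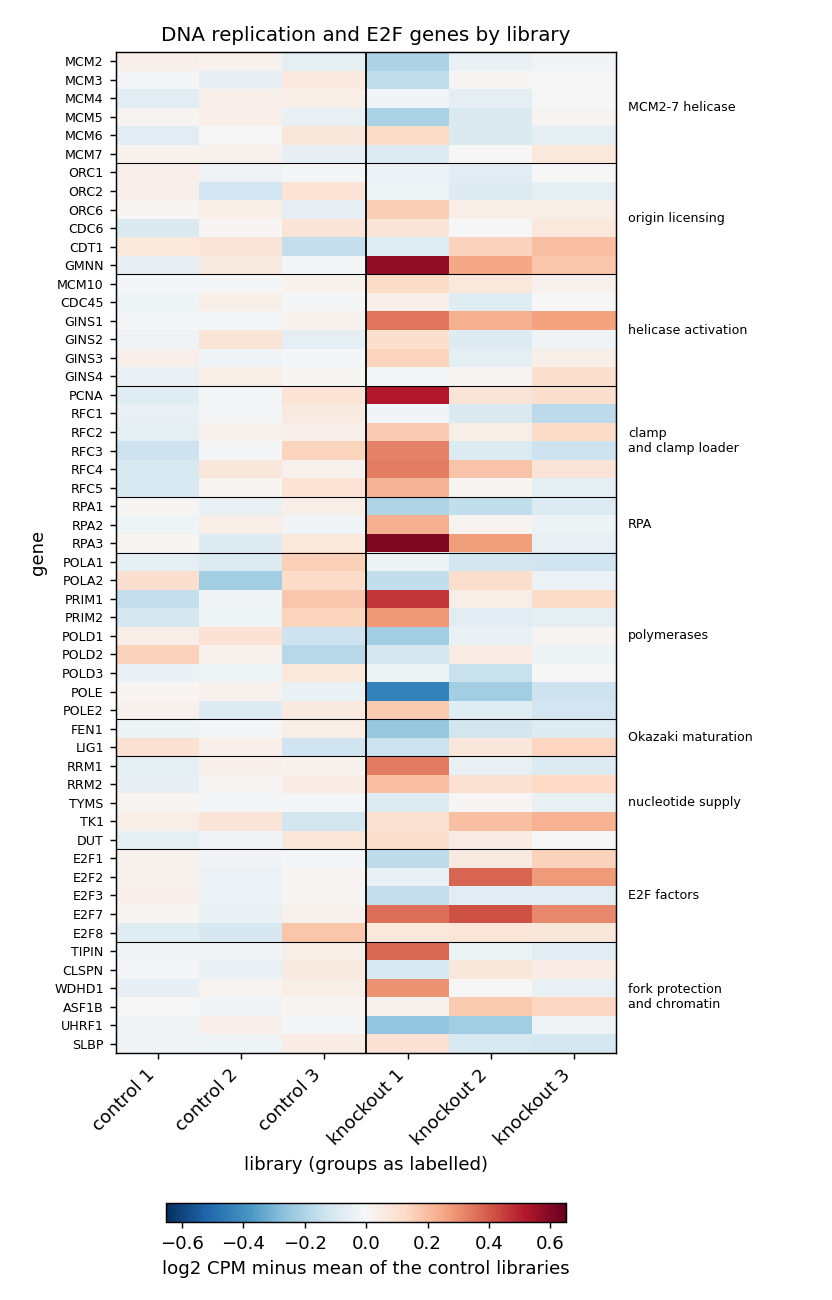
Level of each of the 54 genes (rows, grouped by role) in each of the 6 libraries (columns), as log2 CPM minus the mean of the control libraries. The column of knockout replicate 1 holds the deepest colours in both directions, while the E2F7 and GINS1 rows are red in all 3 knockout libraries.

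Of the 54 members, all of which passed the filter on low counts, 1 was called higher, E2F7, against 1.01% of all loci called higher, and 0 were called lower, against 1.36% of all loci. DESeq2 called 2 members higher, E2F7 and GINS1, and 0 lower, and limma-voom called 1 higher and 0 lower. Of all loci, edgeR called 2.37%, DESeq2 4.47% and limma-voom 2.10% in either direction. At an unadjusted p under 0.05, edgeR placed 6 members higher (9.10% of all loci) and 1 lower (7.76% of all loci), DESeq2 8 and 3, and limma-voom 5 and 1. Of the loci each tested, DESeq2 placed 15.5% and limma-voom 16.5% under that p in either direction. With 1 library left out, the number called higher was 3 without knockout replicate 1 (E2F2, E2F7 and GINS1) and 0 without any 1 of the other 5. The share of all loci called was 4.54% without knockout replicate 1 and from 0.687% to 1.66% in the other 5 fits. All 3 knockout libraries lay above all 3 control libraries for 10 members, where 11.8% of all loci did so, and below them for 4, where 11.5% did so. The median log2 fold change was 0.032 over the members and 0.0097 over all loci; without knockout replicate 1 it was -0.010 over the members and 0.00050 over all loci, so its sign rests on that library. Among all loci, 150 were called higher and 202 lower, and scaling by library size alone changed this split to 175 and 155.

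The 95% intervals reflect the spread between these libraries, and do not bound an effect of the knockout apart from that of the clones. For 53 of the 54 members the interval lay within a 1.5-fold change in either direction, with RPA3 the exception. The share of all loci with such an interval is not given here. A log2 fold change under 0.2 in size was found for 45 members, or 83.3%, and for 68.1% of all loci. The members were well counted, with 588 to 24497 counts in any library. Among the 7367 loci with a mean CPM in the members' range, 23.3 to 438, the median size of the log2 fold change was 0.091, and it was 0.078 in the members. In bulk libraries, a difference in the number of cells in S phase cannot be told apart from a difference in RNA of these genes per cell.

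**Figure D2:**
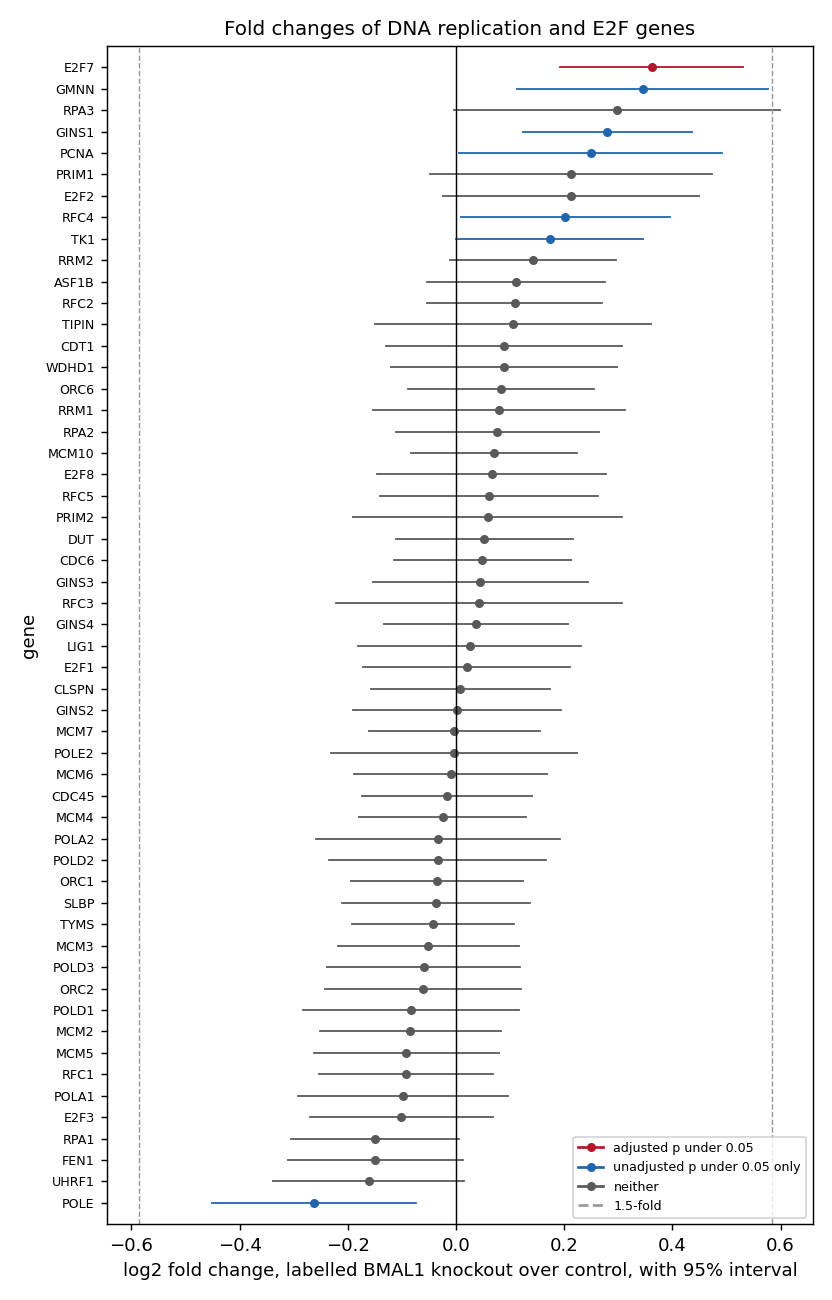
Log2 fold change of each gene, libraries labelled BMAL1 knockout over control, with its 95% interval from edgeR (3 libraries a group); dashed lines mark a 1.5-fold change. E2F7 is the one gene with an adjusted p under 0.05, and the upper end of the RPA3 interval, 0.60, passes the dashed line.

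Summed over all members, the level was 6817, 6894 and 7003 CPM in the control libraries and 7184, 6920 and 6981 CPM in the knockout libraries. Knockout replicate 1 was the highest of the 6, and replicates 2 and 3 lay inside the range of the controls. The knockout mean was 1.02 times the control mean, and 1.01 times without replicate 1. By role, the order of these ratios changed without replicate 1, the only library left out here. Over 6 libraries the ratio was lowest for Okazaki fragment maturation, 0.939, and highest for the clamp and its loader, 1.09, which were at 0.978 and 1.01 without it. Leaving replicate 1 out, RPA was lowest at 0.955 and the E2F factors highest at 1.11, from 0.977 and 1.07 over 6 libraries.

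Of the E2F factors, 1 was called. E2F7 is an atypical E2F that represses E2F target genes without a DP partner. It measured 44.8, 43.2 and 45.3 CPM in the control libraries and 57.0, 59.2 and 55.3 CPM in the knockout libraries. Every knockout library was above every control, the gap between the groups was larger than the spread within either, and replicate 1 sat between the other knockout libraries. Its log2 fold change was 0.36 (SE 0.077, 95% interval 0.19 to 0.53, adjusted p = 0.0338). With 1 library left out, the estimate stayed between 0.34 and 0.39, but the call held in 1 of the 6 fits: the adjusted p was 0.0203 without knockout replicate 1, 0.162 without knockout replicate 2, 0.0623 without knockout replicate 3, and 0.127, 0.180 and 0.0720 without control replicate 1, 2 and 3. E2F8, the other atypical E2F, was at 25.9, 25.4 and 30.9 CPM in control and 28.6, 28.9 and 28.7 CPM in knockout libraries. Its groups overlapped, and the log2 fold change of 0.066 had an interval from -0.15 to 0.28. It was 0.17 without control replicate 3, and 0.025 and 0.015 without control replicates 1 and 2.

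Of the activating E2Fs, E2F1 measured 118, 114 and 114 CPM in control and 103, 120 and 128 CPM in knockout libraries. The knockout libraries thus lay on both sides of the controls, with replicate 1 lowest, and the log2 fold change of 0.020 had an interval from -0.17 to 0.21; it was 0.10 without replicate 1. E2F2 measured 37.0, 35.5 and 36.6 CPM in control and 35.2, 47.3 and 44.1 CPM in knockout libraries. Replicate 1 was at the control level and replicates 2 and 3 were above it. The log2 fold change of E2F2 was 0.21 (adjusted p = 0.347) over 6 libraries and 0.33 (adjusted p = 0.0353) without knockout replicate 1, when it was called; across the 6 fits that left out 1 library its adjusted p reached 0.696. E2F3, the remaining activator among the members, was at 51.6, 49.2 and 50.7 CPM in control and 45.3, 48.0 and 48.0 CPM in knockout libraries, which were all lower, at a log2 fold change of -0.10 (adjusted p = 0.552).

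**Figure D3:**
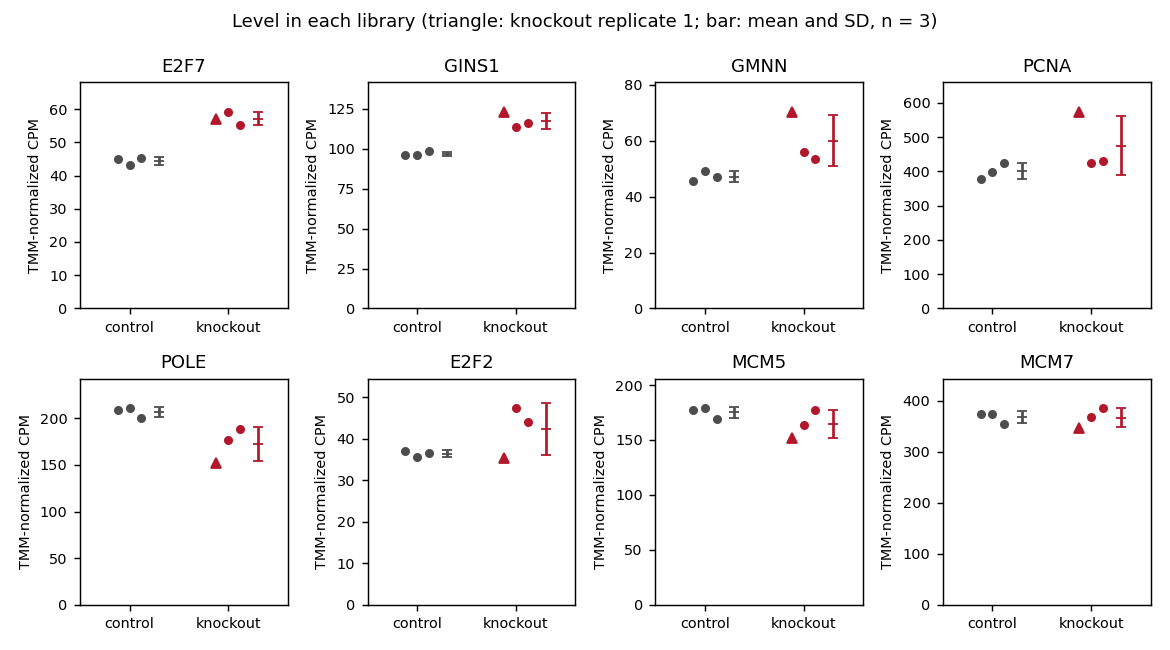
TMM-normalized CPM of 8 genes in each library; points are libraries, the triangle is knockout replicate 1, and bars give the mean and SD (n = 3). E2F7, GINS1 and GMNN are higher in every knockout library than in any control and POLE is lower, while the triangle is the highest knockout library for GMNN and PCNA and the lowest for E2F2 and POLE.

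RefSeq promoters (GRCh38.p14, 250 bases before to 50 after the start) were read for the 47 of 54 members matched by symbol. MCM4, MCM5, GINS4, RPA2, RPA3, POLD3 and E2F8 were not matched. For each gene only the first promoter listed was read, and others of the same gene were not searched. The 35116 promoters set beside them include 7811 further entries of a symbol. The promoters were searched on both strands for the E2F words TTTCCCGC, TTTCGCGC, TTTGCCGC and TTTGGCGC, and for CACGTG, the E-box that BMAL1 and CLOCK bind. An E2F word was present in 22 of the 47, or 46.8%, and in 3.31% of all 35116 promoters. The E-box was present in 5, or 10.6%, and in 7.26% of all. An E2F word was in 24.2% of other replication genes, 14.3% of G1 and S phase regulators and 8.82% of mitotic genes, described below. The E-box was in 12.1%, 23.8% and 17.6% of these lists. Median log2 fold changes were -0.00090 for the 22 members with an E2F word, 11 of them above 0, and 0.070 for the 25 without, 16 of them above 0. Without knockout replicate 1 the medians were -0.0053, with 10 above 0, and -0.016, with 12 above 0. These medians were not taken with any other library left out. A match describes letters and not binding, and no match says only that these letters are not in this window. The promoters of E2F7 (chr12:77065520-77065819, reverse strand), which was called and held none of the words, and E2F1 (chr20:33686336-33686635, reverse strand), which was not called and held 2 of them, beginning 33 and 20 bases before the start, are shown to set the called repressor beside an activator, with the words in capitals.
E2F7: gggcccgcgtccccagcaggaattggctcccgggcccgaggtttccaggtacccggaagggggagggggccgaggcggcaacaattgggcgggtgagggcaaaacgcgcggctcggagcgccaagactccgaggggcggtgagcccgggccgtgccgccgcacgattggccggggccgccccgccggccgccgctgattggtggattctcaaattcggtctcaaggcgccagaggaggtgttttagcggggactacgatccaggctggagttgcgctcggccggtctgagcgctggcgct
E2F1: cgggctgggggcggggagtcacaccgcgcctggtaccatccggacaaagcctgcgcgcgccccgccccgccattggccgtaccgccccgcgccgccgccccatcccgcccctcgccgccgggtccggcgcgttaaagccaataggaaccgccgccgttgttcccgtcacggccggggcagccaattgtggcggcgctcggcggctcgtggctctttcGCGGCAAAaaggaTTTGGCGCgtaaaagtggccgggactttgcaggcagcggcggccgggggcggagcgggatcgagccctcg

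The MCM2 to MCM7 subunits form the hexameric helicase. Their log2 fold changes lay between -0.092 (MCM5) and -0.0031 (MCM7), all below 0 over 6 libraries with TMM and the default low-count filter. MCM7 was at 0.0017 with no low-count filter and 0.00043 with at least 10 counts in every library. With library size alone MCM4, MCM6 and MCM7 took values above 0, at 0.0049, 0.018 and 0.026. Without knockout replicate 1, MCM7 was at 0.033 and the other 5 stayed below 0, from -0.081 (MCM6) to -0.0010 (MCM3). edgeR, DESeq2 and limma-voom each called 0 of the 6 and placed 0 of them under an unadjusted p of 0.05. MCM5 measured 177, 179 and 169 CPM in control and 152, 164 and 177 CPM in knockout libraries. The groups overlapped, replicate 1 was lowest, and the interval of the log2 fold change ran from -0.26 to 0.079. MCM7, the most abundant subunit per kb of exon at 74.2 CPM per kb in control and 74.1 in knockout libraries, measured 374, 375 and 355 CPM against 348, 369 and 386 CPM. Its knockout libraries lay on both sides of the controls, with an interval from -0.16 to 0.16. Of the 40 tested loci nearest to MCM7 on chromosome 7, 38 had a log2 fold change above 0 (median 0.12), whose part in its value was not tested. MCM7 shares 392 of its 4960 exon bases with AP4M1 on the opposite strand, so the reads of MCM7 are uncertain. AP4M1 held 2066 reads against 73204 for MCM7. The intervals of the 4 other subunits were -0.25 to 0.083 for MCM2, -0.22 to 0.12 for MCM3, -0.18 to 0.13 for MCM4 and -0.19 to 0.17 for MCM6. The promoters of MCM6 (chr2:135876394-135876693, reverse strand) and MCM7 (chr7:100101348-100101647, reverse strand) are shown. Among the 47 members with a promoter read, the former holds the most E2F words, and the latter holds both kinds of motif, as does MCM2. That of MCM6 holds 4 words, in pairs that overlap on opposite strands, and that of MCM7 holds 2 words, with an E-box 25 bases before the start; all are in capitals.
MCM6: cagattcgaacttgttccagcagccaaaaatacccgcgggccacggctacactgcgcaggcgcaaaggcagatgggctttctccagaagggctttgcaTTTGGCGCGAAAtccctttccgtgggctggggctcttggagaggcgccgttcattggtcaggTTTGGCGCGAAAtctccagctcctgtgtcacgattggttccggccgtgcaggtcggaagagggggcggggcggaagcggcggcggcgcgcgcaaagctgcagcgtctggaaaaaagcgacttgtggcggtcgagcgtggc
MCM7: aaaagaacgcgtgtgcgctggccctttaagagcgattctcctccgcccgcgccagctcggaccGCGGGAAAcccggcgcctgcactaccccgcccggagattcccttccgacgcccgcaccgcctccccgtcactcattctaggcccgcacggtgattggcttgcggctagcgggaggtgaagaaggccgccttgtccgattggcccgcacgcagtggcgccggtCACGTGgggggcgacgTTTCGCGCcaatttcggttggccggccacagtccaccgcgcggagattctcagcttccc

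Of the 6 origin licensing genes, edgeR called 0 in either direction, as did DESeq2 and limma-voom, and each tool placed 1 higher at an unadjusted p under 0.05, in edgeR GMNN. GMNN encodes geminin, which binds CDT1 and blocks a second round of licensing. It measured 45.5, 49.1 and 47.0 CPM in control and 70.4, 56.1 and 53.4 CPM in knockout libraries. All knockout libraries were higher, and replicate 1 was far above the others. On the log2 scale the fold change was 0.35 (95% interval 0.11 to 0.58, adjusted p = 0.119) and 0.21 (adjusted p = 0.129) without replicate 1; across alternatives its adjusted p ranged from 0.0446 to 0.321. CDC6, which loads the helicase and was the most abundant licensing gene per kb of exon, had overlapping groups at a log2 fold change of 0.048. It was 0.029 without replicate 1. CDT1, ORC1, ORC2 and ORC6 lay between -0.060 and 0.088. Without replicate 1 these 4 genes were at 0.17, -0.035, -0.078 and 0.042.

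GINS1, a subunit of the GINS complex that joins CDC45 and MCM in the active helicase, was the member next nearest to a call. It measured 95.9, 96.1 and 98.4 CPM in control and 123, 114 and 116 CPM in knockout libraries. All knockout libraries were higher, by more than the spread within either group. GINS1 had a log2 fold change of 0.28 (95% interval 0.12 to 0.44, adjusted p = 0.0665), and it was called without knockout replicate 1, at 0.24 (adjusted p = 0.0449), with library size alone and by DESeq2. Across its alternatives the adjusted p ranged from 0.0123 to 0.256, the latter without control replicate 2. GINS1 overlaps NINL on the opposite strand, and the part of that gene's reads was not tested. GINS2, GINS3 and GINS4, the other subunits, had log2 fold changes of 0.0014, 0.045 and 0.038, with intervals from -0.19 to 0.19, -0.15 to 0.24 and -0.13 to 0.21. Without replicate 1, GINS2 and GINS3 turned to -0.053 and -0.0095, and GINS4 was at 0.059. CDC45, at -0.017 (-0.042 without replicate 1), and MCM10, at 0.070 (0.044), completed the group, of which edgeR called 0 and DESeq2 called GINS1. The promoter of GINS1 (chr20:25407423-25407722, forward strand) is shown as that of the member closest to the threshold with an E2F word, which begins 5 bases after the start and is in capitals.
GINS1: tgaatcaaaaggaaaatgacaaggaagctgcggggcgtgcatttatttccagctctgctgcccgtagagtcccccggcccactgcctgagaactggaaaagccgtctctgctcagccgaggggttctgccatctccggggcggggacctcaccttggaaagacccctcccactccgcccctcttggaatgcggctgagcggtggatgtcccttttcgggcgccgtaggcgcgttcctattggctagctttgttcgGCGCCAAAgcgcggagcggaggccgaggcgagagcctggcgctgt

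PCNA, the sliding clamp that holds the polymerase on DNA, measured 379, 397 and 425 CPM in control and 574, 423 and 429 CPM in knockout libraries. Replicate 1 was far above the rest, and replicates 2 and 3 lay at the upper control value. The log2 fold change of 0.25 (95% interval 0.0050 to 0.49, adjusted p = 0.286) became 0.089 (adjusted p = 0.453) without replicate 1. Of the loader subunits, RFC4 measured 56.9, 64.1 and 62.1 CPM in control and 76.6, 69.4 and 64.6 CPM in knockout libraries. The groups did not overlap, and the log2 fold change was 0.20 (adjusted p = 0.274) and 0.13 without replicate 1. RFC4 is uncertain because 18 of its 2997 exon bases are shared with EIF4A2 on the opposite strand. EIF4A2 held 61159 reads in all against 13232 for RFC4, and their part in its value was not tested. Of the 40 tested loci nearest to RFC4, 30 were also above 0 (median 0.11), and their part in its value was not tested. RFC1, RFC2, RFC3 and RFC5 lay between -0.092 and 0.11. Without replicate 1, RFC3 turned from 0.043 to -0.12 and RFC5 from 0.060 to -0.029, with RFC1 at -0.13 and RFC2 at 0.079. For RFC2, 30 of its 40 nearest loci were above 0 (median 0.080), whose part was not tested. For the whole group, edgeR, DESeq2 and limma-voom called 0 of the 6 genes of the clamp and its loader, with 2, 2 and 1 of them higher at an unadjusted p under 0.05.

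The RPA subunits coat single-stranded DNA as a trimer. RPA1 measured 231, 222 and 237 CPM in control and 200 (replicate 1), 205 and 216 CPM in knockout libraries. These were all lower, at a log2 fold change of -0.15 (adjusted p = 0.313). Of the 40 tested loci nearest to RPA1, 30 were also below 0 (median -0.16), and their part in its value was not tested. RPA3 measured 44.2, 41.2 and 46.0 CPM in control and 66.6, 52.8 and 42.3 CPM in knockout libraries. The knockout libraries of RPA3 ran from below the control mean to far above every control, and its interval, -0.0029 to 0.60, was the widest of all members; the log2 fold change was 0.30 over 6 libraries and 0.11 without replicate 1. RPA1 overlaps SMYD4 and RPA3 overlaps UMAD1, each on the opposite strand. RPA2 was at 0.077 and turned to -0.011 without replicate 1. edgeR, DESeq2 and limma-voom called 0 of the 3, and at an unadjusted p under 0.05 DESeq2 placed 1 higher and 1 lower and the others 0.

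POLE, the catalytic subunit of the leading-strand polymerase, was the member furthest below 0. It measured 209, 211 and 200.3 CPM in control and 152, 176 and 188 CPM in knockout libraries. All knockout libraries were lower, with replicate 1 the lowest. POLE had a log2 fold change of -0.26 (95% interval -0.45 to -0.074, adjusted p = 0.142) and of -0.18 (adjusted p = 0.110) without replicate 1; across alternatives its adjusted p ranged from 0.0337 to 0.387. Of the 32 tested loci nearest to POLE, at the end of chromosome 12, 29 also had a log2 fold change below 0, with a median of -0.31; the part of the region in the value of POLE was not tested. POLE2, which encodes a partner subunit elsewhere in the genome, was at -0.0038, and at -0.11 without replicate 1. PRIM1, the catalytic subunit of primase, measured 53.4, 58.9 and 67.2 CPM in control and 82.1, 61.3 and 64.6 CPM in knockout libraries, with overlapping groups and a log2 fold change of 0.21 that was 0.072 without replicate 1. POLA1, POLA2, PRIM2, POLD1, POLD2 and POLD3 lay between -0.098 and 0.059. Without replicate 1, PRIM2 turned from 0.059 to -0.070, POLA2 from -0.033 to 0.027 and POLD2 from -0.034 to 0.0011, while POLD1 moved from -0.084 to -0.016. Of the 40 tested loci nearest to POLA2, 32 were below 0 (median -0.11), and their part in its value was not tested. POLA2 also shares 2012 of its 12006 exon bases with another locus on the same strand, which held 9094 reads against 39990. edgeR, DESeq2 and limma-voom called 0 of the 9 polymerase genes, where 1 of them, below 0, had an unadjusted p under 0.05 in each tool.

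FEN1, which trims Okazaki fragments, measured 169, 172 and 179 CPM in control and 146, 159.6 and 163 CPM in knockout libraries. These were all lower, at a log2 fold change of -0.15 (95% interval -0.31 to 0.013, adjusted p = 0.334); FEN1 shares exon sequence with FADS2 on the same strand. LIG1, the ligase that seals them, was at 0.025, and at 0.10 without replicate 1. Among the genes of nucleotide supply, TK1, thymidine kinase, measured 217, 224 and 195 CPM in control and 227, 243 and 248 CPM in knockout libraries. All knockout libraries were higher, with replicate 1 the closest to the controls. TK1 had a log2 fold change of 0.17 (adjusted p = 0.294) and of 0.21 (adjusted p = 0.106) without replicate 1, with a range of adjusted p over its alternatives from 0.0428 to 0.526. RRM2, the regulated subunit of ribonucleotide reductase, measured 352, 366 and 377 CPM in control and 418, 391 and 399 CPM in knockout libraries, all higher, at a log2 fold change of 0.14 (adjusted p = 0.331), and 32 of its 40 nearest loci were also above 0 (median 0.17), whose part was not tested. RRM1, its partner, was high in replicate 1 alone, at 376 CPM against 279 to 304 CPM in the other libraries, and its log2 fold change turned from 0.080 to -0.072 without it. TYMS and DUT were at -0.042 and 0.053, and at -0.024 and 0.019 without replicate 1. TYMS is uncertain, since 967 of its 2421 exon bases are shared with ENOSF1 on the opposite strand. ENOSF1 held 14123 reads against 42160 for TYMS. edgeR, DESeq2 and limma-voom called 0 of these 7 genes, with 1, 2 and 1 higher and 0, 1 and 0 lower at an unadjusted p under 0.05.

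The genes of fork protection and chromatin assembly were at log2 fold changes from -0.16 (UHRF1) to 0.11 (ASF1B), and edgeR, DESeq2 and limma-voom called 0 of the 6 and placed 0 under an unadjusted p of 0.05. UHRF1, which keeps DNA methylation through replication, measured 138, 144 and 140.2 CPM in control and 118, 121 and 139 CPM in knockout libraries, where replicate 3 was inside the control range. TIPIN, a fork protection factor, was high in replicate 1 alone, at 41.7 CPM against 30.8 to 33.1 CPM elsewhere, and its log2 fold change turned from 0.11 to -0.054 without it. WDHD1, a replisome adaptor, turned from 0.088 to -0.028. SLBP, which binds histone mRNA, was at -0.037 (-0.11 without replicate 1), and 33 of its 40 nearest loci were below 0 (median -0.21), whose part was not tested.

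Knockout replicate 1 departed from the other knockout libraries along the base composition of the members. Across the 54 genes, the difference of replicate 1 from the mean of replicates 2 and 3 correlated with exon GC content at r = -0.74 (Spearman's rho -0.76), and across the 13596 loci with a GC value at r = -0.39 (rho -0.54). These are genes of the same libraries and not independent replicates. Of the 22 members with a GC content under 45%, 20 were higher in replicate 1, and of the 16 over 52%, 2 were. Control replicate 3 against the other controls gave r = -0.73 (rho -0.70) across the members and r = -0.36 (rho -0.58) across those loci. For the log2 fold change itself, r was -0.27 (rho -0.25) across the members, and for knockout replicates 2 and 3 against the controls it was 0.17 (rho 0.19), so its sign turned without replicate 1. When each library's trend with GC content was removed, a step chosen after seeing the data, 4 members were called higher (E2F7, GINS1, GMNN and TK1) and 1 lower (POLE), while 7.62% of all loci were called. The adjusted p then was 0.0112 for E2F7, 0.0156 for GINS1, 0.0446 for GMNN, 0.0428 for TK1 and 0.0337 for POLE, and for E2F7 it ranged from 0.00185 to 0.180 over all alternatives.

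**Figure D4:**
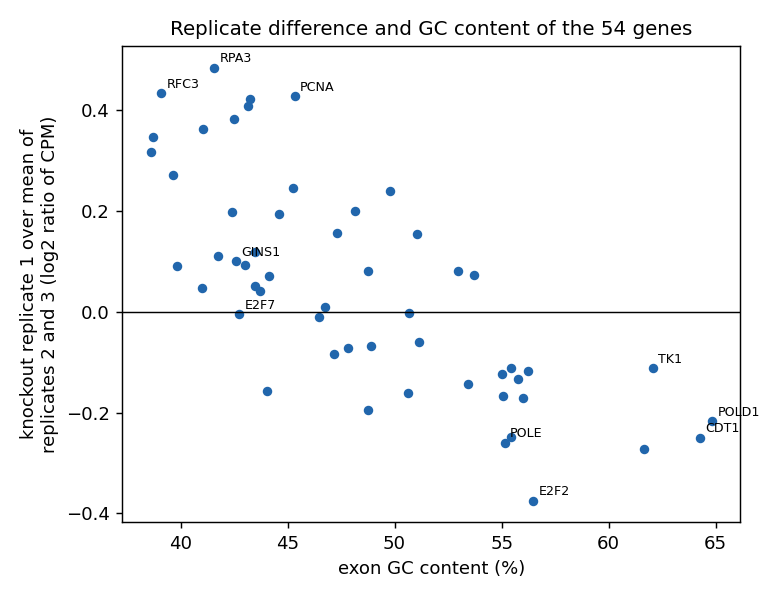
Difference of knockout replicate 1 from the mean of knockout replicates 2 and 3 (log2 ratio of CPM) against exon GC content (percent), 1 point for each of the 54 genes. Genes of low GC content such as RPA3 and RFC3 lie above 0 and those of high GC content such as E2F2 and CDT1 below, while E2F7 lies near 0.

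Beyond the members, 43 other genes of replication were tested, of which edgeR called 2 higher and 0 lower, as did DESeq2 and limma-voom. Their median log2 fold change was 0.038, or 0.0067 without knockout replicate 1, and at an unadjusted p under 0.05 edgeR and limma-voom placed 5 higher and 0 lower and DESeq2 5 and 1. DNA2, a nuclease of Okazaki fragments, measured 52.4, 53.9 and 59.2 CPM in control and 78.2, 69.0 and 69.4 CPM in knockout libraries. All knockout libraries were higher, with replicate 1 the highest, at a log2 fold change of 0.39 (adjusted p = 0.0393). Leaving out 1 library, the call of DNA2 held only without knockout replicate 1 (adjusted p = 0.0345). Without control replicates 1, 2 and 3 its adjusted p was 0.166, 0.185 and 0.0669, and without knockout replicates 2 and 3 it was 0.0879 and 0.0628.

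Of 25 regulators of G1 and the entry to S phase, edgeR and limma-voom called 1 higher and 1 lower, and the edgeR median was 0.069 (0.068 without knockout replicate 1). DESeq2, which tested 26 of these regulators, called 2 higher and 1 lower. CDKN1A, the gene that DESeq2 added, encodes the kinase inhibitor p21 and measured 113, 109 and 88.9 CPM in control and 127, 158 and 139.8 CPM in knockout libraries. All knockout libraries were higher, at a log2 fold change of 0.45 (adjusted p = 0.0520), and edgeR called it without knockout replicate 1 and with the GC trend removed. CCND1, which encodes cyclin D1 and drives the release of E2F, measured 216, 214 and 226 CPM in control and 139, 135 and 153 CPM in knockout libraries. All were lower, at a log2 fold change of -0.62 (adjusted p = 0.00242), a call that held in all 6 fits without 1 library. CDKN2B, an inhibitor of the kinases that cyclin D1 activates, was higher at 0.66 (adjusted p = 0.0160), and among fits without 1 library it was called only without knockout replicate 1 (0.00610), the others giving from 0.0502 without knockout replicate 3 to 0.0768 without control replicate 2. Of 40 mitotic genes, whose peak comes after S phase, edgeR and limma-voom called 0, each with 1 higher and 3 lower at an unadjusted p under 0.05, and DESeq2 called CDK1 higher and CDC20 lower; the median was 0.030. PLK1, a mitotic kinase, was at -0.21 (adjusted p = 0.272). CDK1 measured 217, 230 and 253 CPM in control and 402, 279 and 270 CPM in knockout libraries, with replicate 1 the highest and no overlap between groups. Without replicate 1, edgeR called CDC20 (adjusted p = 0.0491) and CCNB1 lower, and the median of the mitotic genes was -0.060.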

How the data were processed

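Reads with adapters or bases of low quality were discarded by the authors, who mapped the rest to hg38 and deposited raw counts of reads with a unique position for each gene, without pooling replicates. Their processing notes list fastp 0.20.1 and HISAT2 2.0.4, which the methods name for mapping and counting. Annotation and strandedness are not given in the sources used here, so values of genes with an overlapping locus, 12 of the members, are uncertain. CPM, log2 fold changes and p-values were computed with edgeR 4.0.16 (R 4.3.3) by TMM, the default low-count filter and the robust quasi-likelihood test, 2-sided, with Benjamini-Hochberg adjustment over 14860 loci. The design written for the test did not state the dispersion estimate. The newer one of edgeR was used in place of this version's default, and it was picked after the numbers of calls under both had been compared with earlier results of these data. The members and lists were chosen with earlier results of these data known. The rule for named genes took BMAL1, the members called and those with the next smallest p up to 14, MCM2 to MCM7, the E2F members, the most abundant member per kb of exon in each role, and of each other list the called genes (at most 6) or else the 3 with the smallest p. The remaining members, the overlapping and neighbouring loci, CCNB1 and CDKN1A were named after their values were seen. Some genes of the lists are not reported here. Exons and GC content came from GENCODE v44, and promoters from RefSeq. Alternatives used DESeq2 1.42.0, limma 3.58.1 (voom), other scalings, filters and thresholds, a replicate block, thinned counts and removal of GC trends. The edgeR, DESeq2, voom and GC steps were tested on simulated data. Counts of a pair of replicates varied by 5.37 to 46.5 times what counting alone gives, and those of the members by 5.76 to 70.2 times.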

Additional observations from a re-analysis of the deposited data

How the results depend on the processing

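The results were recomputed under 18 settings, of which removal of the GC trend and edgeR's legacy dispersion were chosen after seeing the data. Legacy dispersion, the default of this edgeR version, called 161 loci higher and 212 lower, against 150 and 202, and 1 member, E2F7, in both. Of 27 named members, 20 kept 1 sign in every setting. Members called higher numbered 2 with library size only, with DESeq2 and at an adjusted p under 0.1, 4 with the GC trend removed (1 lower), and 0 at a fold change over 2 with an unadjusted p under 0.01. The share of tested loci called was 2.22% with library size only, 4.47% with DESeq2 and 7.62% with the GC trend removed, against 2.37%. For the changed thresholds this share is not given here. Members with an unadjusted p under 0.05 numbered 11 with DESeq2 and 13 with the GC trend removed, against 7, where the share of the loci each tested was 15.5%, 24.2% and 16.9%. With library size only, the members' median log2 fold change was 0.061, and MCM4, MCM6, MCM7 and CDC45 turned to 0.0049, 0.018, 0.026 and 0.012. MCM7 turned to 0.0017 with no low-count filter, 0.00043 with at least 10 counts in every library and 0.021 with the GC trend removed, where CDC45 was at 0.0097. E2F1 was at -0.0021 after thinning to the smallest total. For these changes the cause was not tested. Leaving out 1 library, with fewer samples, gave 0 to 3 members called higher, 4 to 8 with an unadjusted p under 0.05 and medians from -0.010 to 0.044. Of all loci tested in these fits, 0.687% to 4.54% were called and 12% to 19.6% had an unadjusted p under 0.05. Log2 fold changes then ranged from -0.081 to 0.032 for MCM6, -0.040 to 0.033 for MCM7, -0.050 to 0.10 for E2F1, -0.11 to 0.0016 for SLBP, -0.042 to 0.014 for CDC45 and -0.011 to 0.13 for RPA2.

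With the replicate number as a block, 0 members were called, 4 had an unadjusted p under 0.05, and 97 loci were higher and 119 lower. Of all loci, 1.45% were called and 14.2% had an unadjusted p under 0.05. Between libraries with the same number, deviations from the group mean correlated across genes at r = -0.090, -0.052 and -0.0047. Between libraries with different numbers, r ran from -0.047 to 0.10. The labels do not say what a shared number stands for, and whether such libraries shared a batch was not tested.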
